A study of Mus musculus with 9 samples.

Results

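The comparison described here is that of the model group, which drank fructose, with the control group, which drank purified water, in the liver of male Wistar rats. Each group held 3 rats, out of 9 rats with a library in the whole experiment. The genes described are those with at least 10 counts in 3 or more of these 6 libraries, which kept 12677 of the 19686 genes in the count table. Of the 12677 genes, 11510 had at least 10 counts in all 6 libraries. A further 270 reached that count in every model rat but not in every control rat, and 438 in every control rat but not in every model rat. Both groups carried no genetic modification in the labels, received saline by gavage once a day for 8 weeks, lived under a 12-h light and dark cycle and were fasted for 12 h before anaesthesia with 5% chloral hydrate. The model group differed by 15% fructose in its drink. The hour at which each rat was killed, and whether the fructose drink stayed available during the fast, are not given in the sources used here. GEO's organism field says mouse, but Wistar is a rat strain, Rnor_6.0 a rat genome and every gene identifier a rat one, and the animals are called rats throughout.

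Fructose reaches the liver from the portal vein and is phosphorylated there by ketohexokinase, split and passed on as triose phosphates. These trioses enter below the main control point of glycolysis and can become glucose, glycogen, lactate, glycerol phosphate or fatty acids. The liver answers sugar, fasting, sterols, amino acid supply and time of day with separate sets of genes, each under its own transcription factors. Those sets, and the families of enzymes and secreted proteins for which hepatocytes are known, give the order of the account below.

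Total counts per library ranged from 14345819 to 26837227. Levels are given as CPM, a gene's counts scaled to a common library total after TMM scaling of the libraries, so CPM of different genes are not comparable with each other. A log2 fold change is the model group minus the control group in the edgeR fit, and an FDR is the Benjamini-Hochberg adjusted p of edgeR's two-sided quasi-likelihood test over all 12677 genes. Scaling to library size alone moved the median log2 fold change over all genes to -0.144, from -0.000148 with TMM factors, and counts of genes under that scaling are set beside the main ones where they bear on a family. The summed CPM of 9 hepatocyte markers ran from 140600 to 180300 in the control rats and from 178600 to 230900 in the model rats, with 3 markers separated upward and 2 downward. That of 12 leukocyte and Kupffer cell markers ran from 263 to 571 in the control rats and from 187 to 428 in the model rats, and others, such as Cd3d, Cd3e, Mpo and Ms4a1, had too few counts to be tested. That of 8 endothelial markers ran from 175 to 279 and from 115 to 321. None of the markers of hepatocytes, leukocytes, endothelial, stellate, bile duct or red blood cells passed the test. Model rat 1 lay apart from the other rats, with a score of 51.2 on a first principal component that held 37.3% of the variance, where the other rats lay between -32 and 21.2. Model rat 2 was the extreme of the second component, with a score of -39.2 and 23.3% of the variance. Its mean distance on the log2 scale (root mean square over genes) was 0.623 to the control rats and 0.666 to the other model rats, while every other rat lay closer to its own group. The biological coefficient of variation was 17.6% among the control rats and 27.4% among the model rats, and 21.5% in the model group without model rat 1. In bulk liver RNA, fewer cells of a type and less RNA per cell cannot be told apart.

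Compared with the control group, few genes passed the test in the model group. At an FDR of at most 0.01 and a log2 fold change of at least 0.5 in either direction, 5 genes were up-regulated and 5 down-regulated, each 0.0394% of the genes tested and together 0.0789%. At an FDR of at most 0.05, 38 genes were up-regulated (0.3%) and 40 down-regulated (0.316%), together 78 genes or 0.615%. With library size alone, the split at 0.05 was 28 up and 46 down. DESeq2 called 457 genes at 0.05, with all 78 among them, and 1660 genes had an unadjusted p under 0.05 in edgeR. In all 78 called genes, every model rat lay on the same side of every control rat. The calls were made on the same 6 libraries, so their separation adds no support to them. Such a separation was found in 1372 of all genes with the model rats above (10.8%) and in 1248 with the model rats below (9.84%), and in 674 (5.32%) and 2117 genes (16.7%) with library size alone. The shares of 10.8% and 9.84% are the background for each count of separated genes below. For counts with library size alone, the background is 5.32% above and 16.7% below.

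The calls depended on which rats were included. At an FDR of 0.05, 25 genes were called without control rat 1, 15 without control rat 2, 32 without control rat 3, 114 without model rat 1, 67 without model rat 2 and 24 without model rat 3. Of the 78 genes, 59 were among the 114 called without model rat 1. Named by their call in all 6 of these fits, 10 genes stood firmest: Per2, Gk, Por, Amdhd1, Noct, Nim1k, Il33, Acpp, Tymp and Kynu. All 78 kept their direction in every alternative setting in which they were tested. Those settings reuse the same rats and the genes were picked on the main fit, so this adds no separate support.

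**Figure D1:**
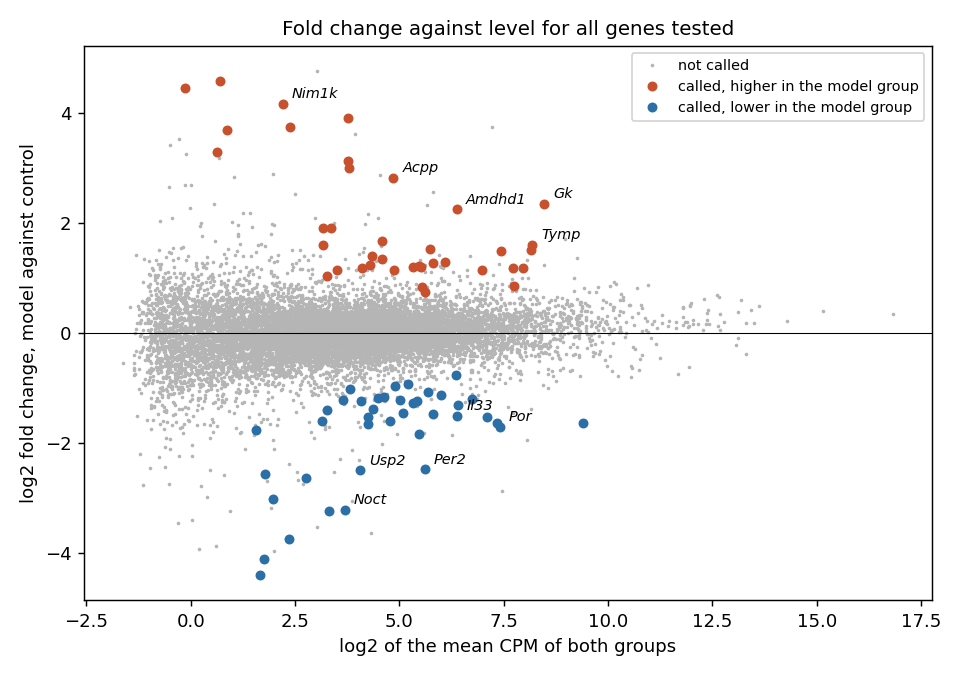
Log2 fold change of the model against the control group (vertical axis) against the log2 of the mean CPM of both groups (horizontal axis) for the 12677 genes tested, each gene a point. The 38 genes called up-regulated at an FDR of 0.05 are in red, the 40 called down-regulated in blue, and the 10 called at 0.01 carry their names.

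**Figure D2:**
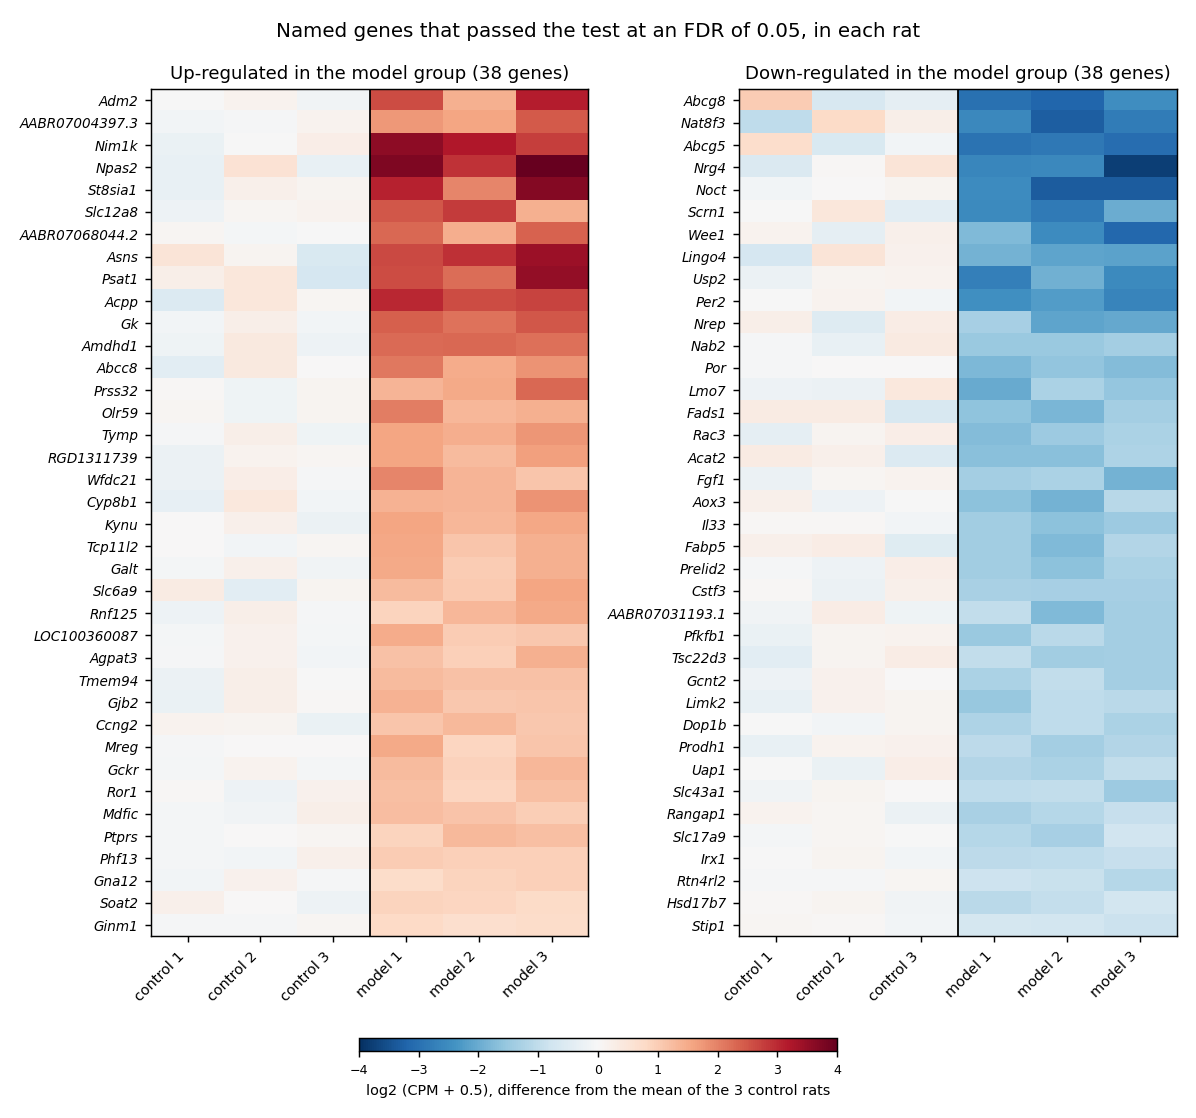
Of the 78 genes called at an FDR of 0.05, the 76 named here (rows) in each of the 6 rats (columns), with 38 up-regulated genes on the left and 38 down-regulated genes on the right, ordered by log2 fold change. Colour is log2 (CPM + 0.5) minus the mean of the 3 control rats; in every row the 3 model rats lie on one side of the 3 control rats.

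The gene with the lowest FDR belonged to the circadian clock. The clock is a loop in which the activators BMAL1 (Arntl) and CLOCK or NPAS2 drive the Per and Cry repressors, while Rev-erb repressors (Nr1d1, Nr1d2) act on the activators in turn. Per2 (ENSRNOG00000020254), a repressor of that loop, stood at 81.1, 90.7 and 76.6 CPM in the control rats and at 14.8, 17.1 and 12.8 CPM in the model rats. It fell by 2.48 on the log2 scale (SE 0.15, FDR 0.00167), and the model rats lay far below the lowest control rat. Npas2, a partner of BMAL1, stood at 1.22, 2.67 and 1.22 CPM in the control rats and at 27.6, 15.1 and 34.1 CPM in the model rats. It was up-regulated (log2 fold change 3.92, SE 0.41, FDR 0.0106), with the lowest model rat well above the highest control rat.

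Around these called genes, the repressor arm had members on both sides. Of its 8 members tested, 4 had all model rats below all control rats and 1 had all above, and the median log2 fold change was -0.89. Per3 stood at 27.5, 19.5 and 34.9 CPM in the control rats and at 1.89, 11.03 and 3.70 in the model rats, without overlap but short of the threshold (FDR 0.133). Cry1 stood at 25.0, 33.8 and 27.6 CPM in the control rats and at 19.7, 10.2 and 10.1 in the model rats (FDR 0.132). Cry2 stood at 37.1, 54.8 and 46.9 CPM and at 22.3, 36.7 and 26.9 CPM (FDR 0.227). The member on the other side was Nr1d1, the gene of Rev-erb alpha, at 8.63, 2.06 and 5.78 CPM in the control rats and at 13.6, 81.9 and 27.8 CPM in the model rats (FDR 0.14). Within the model group its level in rat 2 was about 6 times that in rat 1, so the spread among model rats was wide. Of the activators, Arntl ran from 16.6 to 23.4 CPM in the control rats and from 17.4 to 37.2 CPM in the model rats, with overlap, and Clock overlapped as well (55.7 to 60.3 and 52.0 to 72.0 CPM).

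Genes known as outputs of the clock moved with Per2. Noct (ENSRNOG00000010799), which encodes the rhythmic phosphatase nocturnin, stood at 21.3, 23.6 and 24.9 CPM in the control rats and at 3.61, 1.87 and 1.88 in the model rats, and fell by 3.22 on the log2 scale (SE 0.27, FDR 0.00399). Usp2 (ENSRNOG00000006663), a deubiquitinase, stood at 23.8, 30.6 and 30.9 CPM in the control rats and at 3.79, 7.03 and 4.39 in the model rats (log2 fold change -2.50, SE 0.25, FDR 0.0082). Wee1, a kinase that restrains entry into mitosis, stood at 12.9, 9.04 and 13.5 CPM and at 3.04, 1.61 and 0.877 CPM (log2 fold change -2.64, SE 0.40, FDR 0.0323). All 3 were down-regulated, and no model rat reached the level of any control rat. Of the 8 output genes tested, 6 had all model rats below all control rats and none had all above, with a median log2 fold change of -1.42. The other separated members were Tsku, which encodes a secreted proteoglycan (375 to 453 CPM in the control rats, 25.0 to 193 in the model rats), and the transcription factors Hlf and Tef. Dbp, the best known output factor, did not follow them. It stood at 28.5, 13.9 and 26.8 CPM in the control rats and at 6.30, 54.0 and 4.70 CPM in the model rats, where model rat 2 was the highest of all 6 rats and the other model rats were the lowest.

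**Figure D3:**
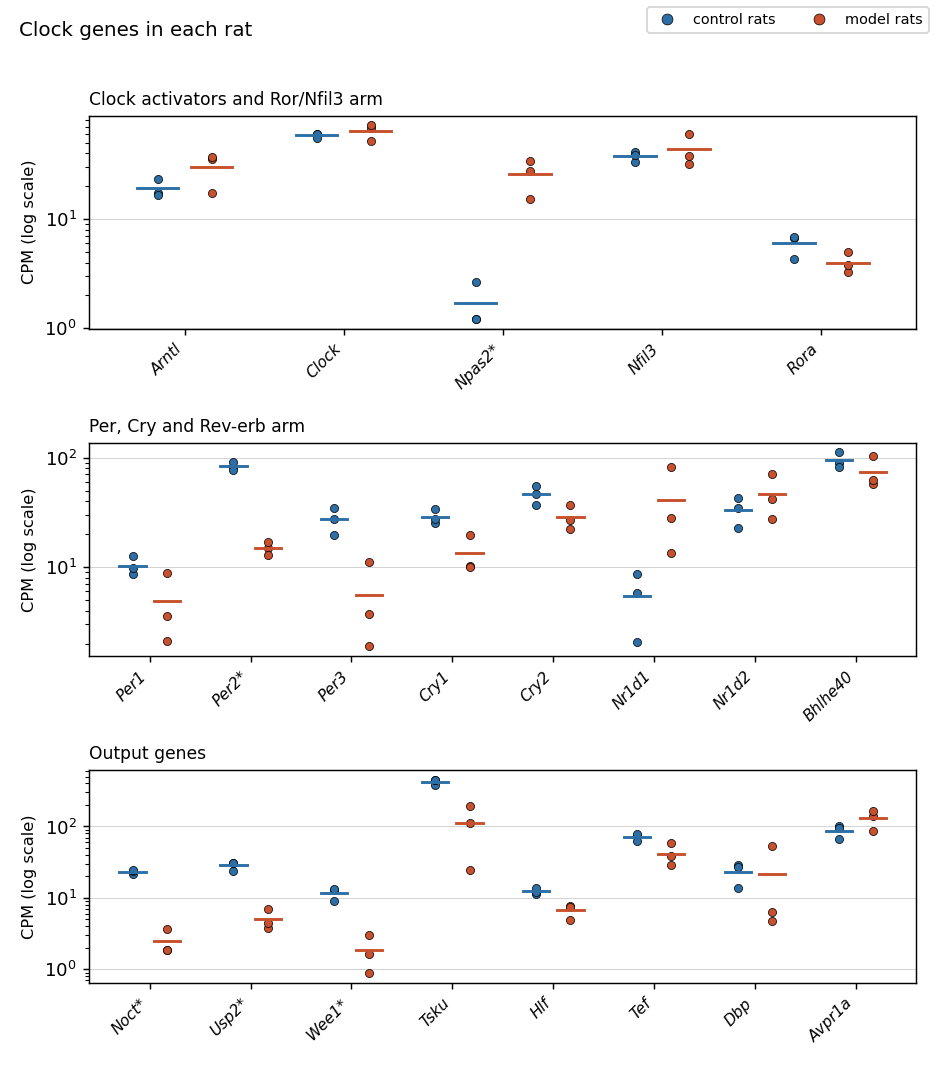
CPM on a log axis of clock activators, of the Per, Cry and Rev-erb arm and of clock output genes in each rat, with 3 control rats (blue) and 3 model rats (red) per gene, group means as bars and an asterisk on genes called at an FDR of 0.05. Per2, Noct, Usp2 and Wee1 lie lower and Npas2 higher in every model rat, while Dbp and Nr1d1 are spread widely among the model rats.

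The enzymes that take up and split fructose lay close together in both groups. Khk, which encodes ketohexokinase, stood at 349, 472 and 527 CPM in the control rats and at 661, 433 and 471 CPM in the model rats, with overlap (log2 fold change 0.22, SE 0.22, FDR 0.717). Slc2a2, the gene of the glucose and fructose carrier GLUT2, ran from 486 to 567 and from 496 to 563 CPM (FDR 0.999). Both genes overlapped between the groups, and their FDR does not show that their levels were equal. Slc2a5, the gene of the fructose carrier GLUT5, stood at 15.2, 21.9 and 21.1 CPM in the control rats and at 31.0, 22.4 and 33.6 CPM in the model rats, separated but not called (FDR 0.287). Sord, the gene of sorbitol dehydrogenase, lay lower in all model rats (908 to 950.1 CPM in the control rats, 669.6 to 771 in the model rats, FDR 0.299).

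Next to these genes stood Gk (ENSRNOG00000034116), which encodes glycerol kinase, the enzyme that makes glycerol phosphate from free glycerol. It stood at 106, 135 and 107 CPM in the control rats and at 611, 517 and 650.2 CPM in the model rats. Gk was up-regulated 5.11-fold (log2 fold change 2.35, SE 0.17, FDR 0.00262). Among the other genes of glycerolipid synthesis, Agpat3, an acyltransferase that makes phosphatidic acid, stood at 25.7, 30.3 and 24.8 CPM in the control rats and at 61.7, 52.7 and 73.1 in the model rats and was up-regulated (log2 fold change 1.21, SE 0.16, FDR 0.0238). Agpat2, of the same enzyme family, was separated in the same direction (43.9 to 57.9 CPM in the control rats, 65.6 to 102 in the model rats) without passing the test (FDR 0.132). Of the 13 genes of this list, 4 had all model rats above, with Dgat1 as the fourth, and 0 had all below, against 3 and 4 with library size alone. The median log2 fold change of the list was -0.03. The final acyltransferase Dgat2 overlapped (389 to 664 and 469 to 702 CPM).

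In glycolysis, 2 regulatory genes passed the test, one up and one down, and no enzyme of the main chain did. Gckr, the gene of a regulatory protein of hexose phosphorylation, stood at 145, 168 and 146 CPM in the control rats and at 366, 290.3 and 388 CPM in the model rats and was up-regulated (log2 fold change 1.18, SE 0.16, FDR 0.0238). Pfkfb1, the liver gene for the enzyme that makes and degrades fructose 2,6-bisphosphate, stood at 99.98, 129 and 133 CPM and at 42.8, 56.4 and 46.5 CPM and was down-regulated (log2 fold change -1.31, SE 0.17, FDR 0.0238). Ldha, a lactate dehydrogenase gene, lay higher in all model rats (770.4 to 790.3 CPM against 1188 to 2002 CPM, FDR 0.117). Pklr, the gene of liver pyruvate kinase, ran from 445 to 528 CPM in the control rats and from 506 to 714 CPM in the model rats, with overlap. Of 23 glycolytic genes tested, 1 rose and 1 fell, and most members had overlapping groups.

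None of the 13 genes of gluconeogenesis passed the test. In 6 of them all model rats lay above all control rats, but only 1 did so with library size alone, and in 2 all lay below. Pc, the gene of pyruvate carboxylase, stood at 437, 436 and 419 CPM in the control rats and at 730.1, 795 and 659 CPM in the model rats (log2 fold change 0.76, FDR 0.064). Sds, which encodes the serine dehydratase that feeds serine into this pathway, stood at 45.2, 12.1 and 53.6 CPM in the control rats and at 5.72, 1.48 and 1.38 CPM in the model rats (FDR 0.0846). Sds was separated, yet control rat 2 lay far below the other control rats and nearer to model rat 1 than to them. Pck1 and G6pc, the genes of cytosolic phosphoenolpyruvate carboxykinase and glucose-6-phosphatase, overlapped between the groups: Pck1 ran from 716 to 1019 CPM in the control rats and from 620.5 to 2230 CPM in the model rats. G6pc ran from 238 to 935 CPM and from 422 to 958 CPM. Galt, which acts on galactose phosphate in the neighbouring Leloir pathway, was up-regulated (12.2 to 15.7 CPM in the control rats and 27.7 to 39.0 in the model rats, log2 fold change 1.35, SE 0.18, FDR 0.0249).

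The genes of fatty acid synthesis were not higher in the model rats. 
Of 13 members tested, 3 had all model rats below all control rats, none had all above, none passed the test and the median log2 fold change was -0.59. Fasn, the gene of fatty acid synthase, stood at 1577, 2833 and 1773 CPM in the control rats and at 1649, 631 and 2392 CPM in the model rats, with overlap (FDR 0.745). Acacb, the gene of the acetyl-CoA carboxylase that controls entry of fatty acids into mitochondria, stood at 163, 205 and 119 CPM and at 54.6, 70.6 and 97.9 CPM, separated but not called (FDR 0.118). Model rat 2 was the lowest of the 3 model rats for Fasn, Acly and Srebf1, the gene of the lipogenic factor SREBP-1. Control rat 3 was far below the other control rats for Pnpla3, a lipogenic lipase gene (448, 449 and 34.7 CPM in the control rats and 69.3, 14.5 and 42.1 CPM in the model rats). In the synthesis of polyunsaturated fatty acids, Fads1, the gene of a front-end fatty acid desaturase, stood at 1232, 1225 and 632 CPM in the control rats and at 320.5, 278 and 388 CPM in the model rats. It was down-regulated (log2 fold change -1.65, SE 0.27, FDR 0.0425), and its neighbour in the pathway Fads2 overlapped through control rat 3 (616, 754 and 298 CPM in the control rats and 239, 295 and 372 in the model rats). Fabp5, which encodes a fatty acid carrier, was also down-regulated (56.1 to 97.5 CPM against 23.0 to 34.8 CPM, log2 fold change -1.48, SE 0.24, FDR 0.041).

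No gene of fatty acid oxidation or ketone body synthesis was called, and more of them were separated upward than downward. Of 19 genes of mitochondrial oxidation, 7 had all model rats above (36.8%), none had all below, and the median log2 fold change was 0.31, or 0.16 without model rat 1. The mean of these genes on the log2 scale, set against the control group, was 0.544, 0.049 and 0.292 in the model rats and -0.14, 0.117 and 0.023 in the control rats, so that model rat 2 lay within the control range. Etfdh, which passes electrons of this pathway to the respiratory chain, stood at 188, 208 and 200.3 CPM in the control rats and at 312, 287 and 311 CPM in the model rats (FDR 0.0921). Of 6 genes of ketone body synthesis, 4 were separated upward, among them Acat1 and Bdh1, and 1 downward. Of 16 genes of peroxisomal and omega oxidation, 5 were separated upward and 2 downward, against 3 and 4 with library size alone. Among them, Ech1 stood at 41.2, 69.1 and 61.0 CPM in the control rats and at 185, 106 and 159 CPM in the model rats (FDR 0.064). Vnn1, the gene of a pantetheinase known as a target of the fasting receptor PPAR alpha, stood at 3.12, 11.5 and 11.3 CPM and at 36.0, 31.5 and 41.3 CPM (FDR 0.102). Cyp4a2, an omega hydroxylase gene, stood at 7.94, 28.0 and 26.2 CPM and at 313, 32.4 and 482 CPM (FDR 0.132), so model rat 2 lay close to the control rats. Cyp4a2 belongs to a family of near-identical genes whose reads the counting can split.

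The genes of cholesterol synthesis lay lower in the model rats almost throughout. The pathway runs from acetyl-CoA through mevalonate and squalene to lanosterol and cholesterol, and its genes share sterol-responsive control. Of its 20 members tested, 16 had all model rats below all control rats (80.0% against 9.84% of all genes), none had all above, and the median log2 fold change was -0.69. Without model rat 1 that median was -0.75, and with library size alone 19 members were separated downward. Acat2, the gene of the cytosolic thiolase at the start of the pathway, stood at 50.7, 46.5 and 27.3 CPM and at 12.4, 12.3 and 16.6 CPM and was down-regulated (log2 fold change -1.597, SE 0.25, FDR 0.0335). Hsd17b7, which encodes a keto reductase of the late pathway, stood at 49.1, 51.9 and 43.4 CPM and at 22.7, 24.5 and 28.8 CPM and was also down-regulated (log2 fold change -0.93, SE 0.15, FDR 0.0348). The separated members without a call included the squalene genes Sqle (73.2 to 86.7 CPM in the control rats, 43.9 to 52.7 in the model rats, FDR 0.0683) and Lss (52.1 to 92.7 and 20.2 to 41.9 CPM, FDR 0.134). Hmgcs1, the gene of a synthase early in the pathway, overlapped, at 869, 705 and 827 CPM in the control rats and at 966, 669 and 957 CPM in the model rats.

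**Figure D4:**
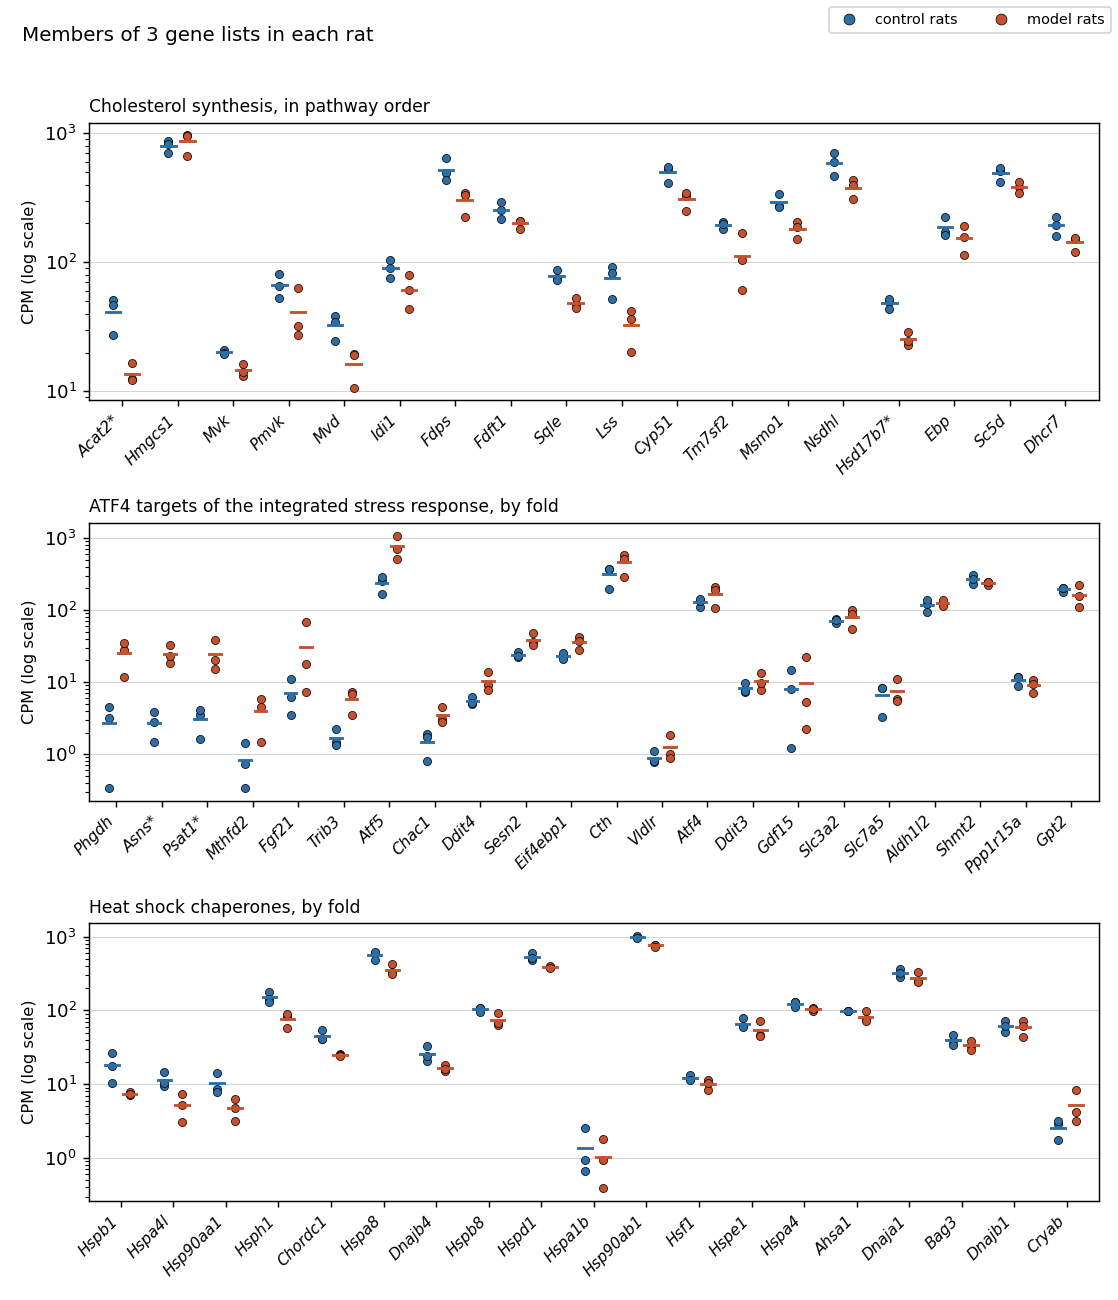
CPM on a log axis of the members of 3 lists in each rat: 18 genes of cholesterol synthesis in pathway order, 22 targets of ATF4 and 19 heat shock chaperones, both by fold. Blue points are the 3 control rats, red points the 3 model rats, bars the group means, and an asterisk marks a gene called at an FDR of 0.05; most sterol and chaperone genes lie lower, and the genes at the left of the ATF4 panel higher, in the model rats.

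Genes that move sterols out of the cell or store them changed in both directions. Abcg5 and Abcg8 encode the paired subunits of the transporter that exports cholesterol into bile. Abcg5 stood at 14.7, 5.64 and 8.09 CPM in the control rats and at 0.705, 0.774 and 0.627 CPM in the model rats, and fell by 3.75 on the log2 scale (SE 0.41, FDR 0.0114). Abcg8 stood at 11.01, 3.09 and 3.88 CPM and at 0.22, 0.129 and 0.501 CPM and was down-regulated as well (FDR 0.0323). All model libraries held under 10 counts of Abcg8, down to 2, so it passed the filter through the control rats alone. The size of that fall is not well measured. Abcg8 was called in none of the 6 fits that left out 1 rat (FDR 0.0695 to 0.104). Soat2, which esterifies cholesterol, was up-regulated (38.4, 33.4 and 28.7 CPM in the control rats and 62.3, 60.6 and 57.5 CPM in the model rats, log2 fold change 0.84, SE 0.14, FDR 0.0478). Like Abcg8, it was called in no fit that left out 1 rat (FDR 0.0501 to 0.189). Insig1 and Insig2, which encode the proteins that retain the sterol sensor in the endoplasmic reticulum, were separated in opposite directions. Insig1 stood at 503, 554 and 316 CPM in the control rats and at 246, 267 and 200 CPM in the model rats (FDR 0.121), and Insig2 at 169, 227 and 144 CPM and at 419.7, 229.7 and 433 CPM (FDR 0.161).

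In bile acid synthesis, Cyp8b1 rose, while 2 entry genes had lower means without a call. Cyp8b1, whose product sets the share of cholic acid, stood at 116, 196 and 134 CPM in the control rats and at 384, 372 and 509 CPM in the model rats and was up-regulated (log2 fold change 1.501, SE 0.23, FDR 0.0305). Cyp7a1, the rate-limiting enzyme of bile acid synthesis, stood at 286, 496 and 464 CPM in the control rats and at 93.0, 94.5 and 288 CPM in the model rats (FDR 0.261). Model rat 3 alone overlapped the control rats for Cyp7a1. Cyp7b1, of the alternative route, stood at 47.6, 12.1 and 17.9 CPM in the control rats and at 2.64, 4.13 and 2.69 CPM in the model rats (log2 fold change -3.05, FDR 0.0598). Hsd3b7, the next enzyme on both routes, lay higher in all model rats (114 to 147 and 205 to 218 CPM, FDR 0.0828). Of the uptake carriers, Slc10a1 (358 to 471 and 570.1 to 676 CPM, FDR 0.147) and Slco1b2 (317 to 459.7 and 587 to 1001 CPM, FDR 0.117) were separated upward.

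Among the 22 genes of apolipoproteins and lipoprotein handling, 7 had all model rats above (31.8%), none had all below and none passed the test. The median log2 fold change was 0.22, and 0.07 without model rat 1. Apoa4 stood at 563, 914 and 796 CPM in the control rats and at 1905, 1101 and 1111 CPM in the model rats (FDR 0.226). Lpl, the gene of lipoprotein lipase, stood at 4.66, 3.03 and 1.84 CPM and at 7.71, 7.87 and 11.97 CPM (FDR 0.117). Of the lipid droplet genes, Hsd17b13, whose product sits on lipid droplets of hepatocytes, stood at 215, 253 and 191 CPM in the control rats and at 409, 318 and 289 CPM in the model rats, separated but not called (log2 fold change 0.63, SE 0.18, FDR 0.182).

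Genes that answer amino acid supply through ATF4 lay higher in the model rats. ATF4 is the factor of the integrated stress response, and its targets make serine and asparagine and restrain translation. Of 22 targets tested, 10 had all model rats above (45.5% against 10.8% of all genes), none had all below, and the median log2 fold change was 0.60, or 0.49 without model rat 1. Under library size alone, 9 had all above and 2 all below. Asns, the gene of asparagine synthetase, stood at 3.89, 2.79 and 1.496 CPM in the control rats and at 18.5, 22.8 and 32.3 CPM in the model rats and was up-regulated 8.78-fold (log2 fold change 3.13, SE 0.35, FDR 0.0143). Psat1, of serine synthesis, stood at 3.48, 4.12 and 1.63 CPM and at 20.4, 15.3 and 38.8 CPM and was up-regulated (log2 fold change 2.99, SE 0.43, FDR 0.0305). Phgdh, the gene of the enzyme before it, stood at 3.20, 4.55 and 0.34 CPM and at 11.8, 27.7 and 35.5 CPM, with a wide spread in both groups (FDR 0.114). The library of control rat 3 held under 10 counts of Phgdh. Atf5, which encodes a related factor, stood at 249.7, 287 and 169.8 CPM in the control rats and at 1079, 516 and 701 CPM in the model rats (FDR 0.0598). Trib3, a pseudokinase that also restrains insulin signalling, stood at 1.498, 1.33 and 2.24 CPM and at 7.22, 3.48 and 6.89 CPM (FDR 0.0828). Atf4 itself overlapped (109.9 to 141 and 107 to 209 CPM), as did Ddit3, the gene of CHOP (7.33 to 9.82 and 7.68 to 13.5 CPM).

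Single steps of amino acid breakdown changed in opposite directions. Amdhd1 (ENSRNOG00000005266), which encodes imidazolonepropionase of histidine breakdown, stood at 24.9, 36.8 and 24.5 CPM in the control rats and at 138, 142 and 132 CPM in the model rats. It was up-regulated 4.78-fold (log2 fold change 2.26, SE 0.18, FDR 0.00353), with little spread among the model rats. Hal, the gene of the first enzyme of that pathway, was separated in the same direction (122.8 to 146 and 209.7 to 213 CPM, FDR 0.0958). Kynu (ENSRNOG00000029993), the gene of kynureninase of tryptophan breakdown, stood at 93.2, 105 and 77.8 CPM in the control rats and at 273, 229.6 and 268 CPM in the model rats and was up-regulated (log2 fold change 1.48, SE 0.16, FDR 0.0106). Around Kynu, Kmo (167 to 184 and 128 to 145 CPM) and Afmid (256 to 333 and 150 to 208 CPM) were separated downward without a call. Nampt, the gene of the enzyme that recycles nicotinamide into NAD, stood at 149, 102 and 118 CPM in the control rats and at 74.1, 47.6 and 48.8 CPM in the model rats (log2 fold change -1.115, FDR 0.0774). Prodh1, of proline breakdown, was down-regulated (120.2, 163 and 168 CPM in the control rats and 71.6, 58.0 and 65.9 CPM in the model rats, log2 fold change -1.20, SE 0.17, FDR 0.0266).

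None of the 13 genes of the urea cycle and ammonia handling passed the test, and 5 were separated downward and 3 upward (8 and 1 with library size alone). Cps1, the gene of the enzyme at the entry of the cycle, stood at 4499, 3842 and 4087 CPM in the control rats and at 2085, 2993 and 2283 CPM in the model rats (FDR 0.125). Gls2, the gene of liver glutaminase, stood at 246, 237 and 291 CPM and at 152, 153 and 134 CPM (log2 fold change -0.82, SE 0.14, FDR 0.0519), just outside the threshold. Glul, the gene of glutamine synthetase, lay on the other side, at 289, 369 and 461 CPM in the control rats and at 477, 684 and 574 CPM in the model rats (FDR 0.256). Cps1, Ass1 and Gls2 are also known as periportal genes and Glul as a pericentral one, but the zonal lists as a whole had members on both sides. Of 16 periportal genes 5 were separated downward and 3 upward, and of 15 pericentral genes 3 and 4. With library size alone the counts were 7 and 2 for the periportal and 6 and 1 for the pericentral genes. Of the amino acid carriers, the glycine carrier gene Slc6a9 was up-regulated (48.7, 28.7 and 41.5 CPM in the control rats and 92.9, 80.95 and 117 CPM in the model rats, log2 fold change 1.29, SE 0.22, FDR 0.05). Slc43a1, which encodes a carrier of large neutral amino acids, was down-regulated (31.2, 37.4 and 34.8 CPM and 16.7, 17.1 and 12.3 CPM, log2 fold change -1.16, SE 0.17, FDR 0.0296).

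In nucleotide metabolism, Tymp (ENSRNOG00000032394), the gene of thymidine phosphorylase, stood at 139, 168 and 126 CPM in the control rats and at 428, 397 and 489.7 CPM in the model rats and was up-regulated 3.04-fold (log2 fold change 1.604, SE 0.16, FDR 0.0082). Of 8 genes of pyrimidine breakdown, it was the one whose groups did not overlap. Of 24 genes that build nucleotides, 6 were separated downward, none upward, and none was called. Tk1, which encodes thymidine kinase, stood at 13.7, 20.8 and 22.8 CPM in the control rats and at 9.25, 9.61 and 8.40 CPM in the model rats (FDR 0.0838). Ctps1, the gene of a CTP synthase, stood at 14.1, 18.8 and 15.1 CPM and at 9.82, 6.06 and 9.21 CPM (FDR 0.121). Of 14 genes of purine breakdown and urate, 4 were separated downward and 1 upward (7 and 0 with library size alone). They included Gda, the gene of guanine deaminase (57.6 to 67.0 CPM in the control rats, 11.3 to 33.2 in the model rats, FDR 0.153), and Xdh, the gene of the oxidoreductase that makes urate (206 to 256 and 109 to 188 CPM, FDR 0.264).

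The gene that supplies electrons to the microsomal enzymes fell. Por (ENSRNOG00000001442) encodes the reductase that passes electrons from NADPH to the cytochrome P450 enzymes of the endoplasmic reticulum. It stood at 249.5, 264 and 264 CPM in the control rats and at 73.6, 86.2 and 78.1 CPM in the model rats. Por fell by 1.71 on the log2 scale (SE 0.13, FDR 0.00277), with a narrow spread in both groups. Alas1, the gene of the rate-limiting enzyme of heme synthesis in liver, stood at 222, 216 and 406 CPM and at 103, 115 and 113 CPM, separated but not called (log2 fold change -1.35, SE 0.25, FDR 0.064). The cytochrome b5 partners Cyb5r3 (352 to 398 and 226 to 332 CPM) and Cyb5b (188 to 239.8 and 136 to 174 CPM) were separated downward as well.

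The P450 genes themselves did not move together. Of 29 members of families 1 to 3, 4 were separated downward, 2 upward and none was called (7 and 1 with library size alone). Cyp2e1, which oxidises ethanol and ketones, ran from 1689 to 2028 CPM in the control rats and from 1129 to 1244 CPM in the model rats (FDR 0.118). Cyp2c6v1 lay on the other side (810.5 to 1218 and 1222 to 1850 CPM, FDR 0.295). Cyp2c6v1 belongs to a family with close copies. Aox3, the gene of an aldehyde oxidase, stood at 236, 178 and 201 CPM in the control rats and at 65.2, 54.1 and 94.0 CPM in the model rats and was down-regulated (log2 fold change -1.53, SE 0.22, FDR 0.0283). Of the transporter families, Abcc8, which encodes the sulfonylurea receptor, was up-regulated (3.04, 5.64 and 4.28 CPM in the control rats and 19.8, 12.7 and 15.8 CPM in the model rats, log2 fold change 1.91, SE 0.27, FDR 0.027). Slc22a23, an orphan member of the organic ion carriers, was separated downward (235 to 253 and 98.9 to 149.9 CPM, FDR 0.0674). No gene of the glutathione S-transferases, glucuronosyltransferases, carboxylesterases or NRF2 targets passed the test.

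Heat shock chaperones, which fold and hold client proteins in the cytosol and mitochondria, lay lower in the model rats. Of 19 tested, 12 had all model rats below all control rats (63.2% against 9.84% of all genes), 1 had all above, and the median log2 fold change was -0.44, or -0.46 without model rat 1. None of them was called. Stip1, which joins Hsp70 to Hsp90, was not on the list and is named because it was called, so it adds no support to the list. It was down-regulated (108, 106 and 94.3 CPM in the control rats and 62.9, 62.0 and 56.5 CPM in the model rats, log2 fold change -0.77, SE 0.13, FDR 0.0422). Chordc1, an Hsp90 co-chaperone gene, stood at 53.9, 40.9 and 40.6 CPM in the control rats and at 25.7, 24.5 and 23.9 CPM in the model rats (FDR 0.0519), just outside the threshold. Hsph1, the gene of an Hsp110 chaperone, stood at 178, 143 and 132 CPM and at 83.2, 90.0 and 58.5 CPM (FDR 0.0851). Hspa8, the constitutive Hsp70 gene, ran from 489 to 614 CPM in the control rats and from 311 to 424 CPM in the model rats (FDR 0.139), and Hsp90ab1 from 972 to 1018 and from 735 to 771 CPM (FDR 0.264). Among 23 genes of the unfolded protein response, 5 were separated downward, none upward and none was called, and Hspa5, the gene of BiP, ran from 915 to 1049 CPM and from 733 to 909 CPM.

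Among the immune genes, Il33 (ENSRNOG00000016456), which encodes a nuclear cytokine of the interleukin-1 family, stood at 129, 128 and 114 CPM in the control rats and at 46.8, 39.1 and 44.9 CPM in the model rats. It fell by 1.502 on the log2 scale (SE 0.13, FDR 0.00406), with little spread in either group. It was the only one called of 71 cytokine and chemokine genes and their receptors, of which 6 were separated upward and 6 downward (4 and 9 with library size alone). The summed leukocyte and Kupffer cell markers overlapped between the groups. The regulators Tnfaip2 and Nlrp12 lay higher in the model rats without a call. Tnfaip2, a gene induced by tumour necrosis factor, stood at 42.5, 52.95 and 35.6 CPM in the control rats and at 60.5, 77.7 and 75.6 CPM in the model rats (log2 fold change 0.71, SE 0.18, FDR 0.133). Nlrp12, of the NOD-like receptors, stood at 41.3, 38.4 and 47.1 CPM and at 67.2, 49.1 and 69.4 CPM (log2 fold change 0.55, SE 0.17, FDR 0.21). Cxcl10, a chemokine induced by interferon, ran from 0.849 to 2.23 CPM and from 2.44 to 8.38 CPM (FDR 0.271).

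Among genes of plasma proteins made by hepatocytes, more were separated upward than downward, by small amounts, and none was called. Of 46 genes of complement and coagulation, 19 were separated upward (41.3% against 10.8% of all genes), none downward and 27 overlapped, with a median log2 fold change of 0.22. With library size alone 12 were separated upward and 2 downward, and the median was 0.07. Of 24 acute phase genes, 12 were separated upward and 1 downward, against 8 and 1 with library size alone. Hp, the gene of haptoglobin, ran from 6597 to 8251 CPM in the control rats and from 9111 to 14590 CPM in the model rats (FDR 0.3). Lbp, which presents bacterial lipopolysaccharide, stood at 53.9, 42.9 and 53.1 CPM and at 104, 104 and 69.9 CPM (FDR 0.0958). F11, of the intrinsic clotting cascade, stood at 122, 170 and 170.4 CPM and at 288, 246 and 248 CPM (FDR 0.111). The summed hepatocyte markers also exceeded every control rat in 2 model rats, and their part in these counts was not tested. Alb, 1 of these markers, alone held 9.91% to 12.7% of the counts of a library. The mean of the 9 markers on the log2 scale, set against the control group, was 0.36, -0.057 and 0.051 in the model rats. In the control rats it ran from -0.059 to 0.03.

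In iron handling, no gene was called, while 8 of 19 were separated upward and 2 downward (5 and 2 with library size alone). Hamp, the gene of hepcidin, which blocks iron export into blood, stood at 185, 117 and 154 CPM in the control rats and at 284, 378 and 484 CPM in the model rats (log2 fold change 1.33, SE 0.24, FDR 0.0598). Tfrc, the gene of the transferrin receptor, lay on the other side, at 116, 192 and 132 CPM and at 58.9, 67.9 and 75.6 CPM (log2 fold change -1.12, FDR 0.0648). Steap3, a ferrireductase gene, stood at 11.6, 17.9 and 13.1 CPM and at 33.5, 25.5 and 49.2 CPM (FDR 0.0838). All 3 genes were separated and none passed the threshold. LOC100360087, annotated as a ferritin light chain 1-like gene, was up-regulated (10.97, 13.2 and 11.1 CPM in the control rats and 33.8, 24.2 and 25.1 CPM in the model rats, log2 fold change 1.24, SE 0.18, FDR 0.0296). It may share reads with Ftl1, whose groups overlapped (537, 783 and 556 CPM and 1379, 736 and 1043 CPM), so its own change is uncertain.

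Of kinases and signalling genes, Nim1k (ENSRNOG00000016353), which encodes a kinase related to AMPK, went from near 0 to a measurable level. It stood at 0.324, 0.485 and 0.68 CPM in the control rats and at 11.2, 8.64 and 6.27 CPM in the model rats and was up-regulated (log2 fold change 4.17, SE 0.37, FDR 0.00406). The lowest control library held 8 counts of Nim1k, so its fold is less well measured than its direction. Nuak1, of the same kinase family, was separated in the same direction (9.72, 7.82 and 9.45 CPM and 19.7, 19.1 and 40.5 CPM, FDR 0.0828), and the catalytic AMPK subunits Prkaa1 and Prkaa2 overlapped. Tsc22d3, the gene of the glucocorticoid-induced leucine zipper, was down-regulated (41.7, 60.0 and 69.3 CPM in the control rats and 28.0, 20.8 and 21.4 CPM in the model rats, log2 fold change -1.28, SE 0.21, FDR 0.0449). Fkbp5, another known glucocorticoid target, was separated upward (16.1 to 18.4 and 18.8 to 23.1 CPM, FDR 0.559), so that list did not move in one direction. In insulin signalling no gene was called, and 4 of 22 were separated upward and 1 downward. Junb, an immediate early gene, stood at 14.5, 19.4 and 14.7 CPM in the control rats and at 131, 139 and 18.6 CPM in the model rats, where model rat 3 lay within the control range.

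Secreted factors changed in both directions. Nrg4, a growth factor of the EGF family, stood at 11.3, 18.0 and 25.1 CPM in the control rats and at 2.42, 2.45 and 0.815 CPM in the model rats and was down-regulated (log2 fold change -3.23, SE 0.43, FDR 0.0257). Fgf1, the gene of a fibroblast growth factor, stood at 23.6, 29.8 and 30.9 CPM and at 10.6, 11.4 and 7.14 CPM and was down-regulated (log2 fold change -1.53, SE 0.21, FDR 0.0257). On the log scale, both genes were separated by more than the spread within either group. Fgf21, the fasting hormone of liver, stood at 6.28, 11.1 and 3.54 CPM in the control rats and at 68.3, 7.29 and 17.9 CPM in the model rats, with overlap and a wide spread (FDR 0.298). The activin subunits Inhba (15.4 to 21.8 and 32.5 to 48.6 CPM, FDR 0.0881) and Inhbe (119 to 164 and 184 to 386 CPM, FDR 0.213) were separated upward. Adm2, the gene of the peptide intermedin, was called up-regulated (FDR 0.0305), at 0.121, 0.182 and 0.068 CPM in the control rats and at 3.30, 1.16 and 4.95 CPM in the model rats. The lowest control library held 1 count of Adm2, and no fold is given.

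None of the 38 nuclear receptors and transcription factors of hepatocytes listed was called. Of the list, 10 were separated upward and 6 downward. With library size alone the counts were 2 and 7, where 5.32% and 16.7% of all genes were separated. Onecut1, a liver homeobox gene, stood at 17.3, 6.67 and 31.4 CPM in the control rats and at 1.63, 3.68 and 4.32 CPM in the model rats (FDR 0.12). Hnf4a ran from 596 to 704 CPM in the control rats and from 386 to 566 CPM in the model rats, and Cebpa from 313 to 361 and from 404 to 441 CPM, each separated but in opposite directions. Irx1, a homeobox gene on no list, was down-regulated (17.5 to 20.5 CPM in the control rats, 8.94 to 9.77 in the model rats, log2 fold change -1.02, SE 0.15, FDR 0.0294), as was Nab2, a corepressor of EGR factors (3.58 to 5.85 and 1.28 to 1.44 CPM, FDR 0.0425).

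For cell structure and growth, 7 of 24 cytoskeletal genes were separated downward and none upward, with Actg1, a cytoplasmic actin gene, at 123.2, 228 and 121 CPM in the control rats and at 103, 75.9 and 86.3 CPM in the model rats (FDR 0.228). Limk2, a kinase gene that acts on actin through cofilin, was down-regulated (36.8, 50.4 and 48.7 CPM and 15.5, 21.7 and 21.1 CPM, log2 fold change -1.22, SE 0.19, FDR 0.0323), as was Rac3, a small GTPase gene (10 to 15.8 and 3.57 to 5.14 CPM, FDR 0.0305). Of 34 cell cycle genes, 8 were separated upward and 6 downward, but 3 and 7 with library size alone. The downward ones were the G1 and replication genes Ccne1, Cdt1, Mcm2, Mcm3, Mcm5 and Mcm6, and Mcm6 ran from 3.70 to 9.56 CPM in the control rats and from 1.57 to 2.58 CPM in the model rats (FDR 0.117). The upward ones included the mitotic genes Ccnb1, Cdc20, Aurka, Tpx2, Birc5 and Cenpf, all of low level, with Cdc20 from 1.09 to 2.06 CPM and from 3.30 to 4.89 CPM (FDR 0.121). Ccne1, Ccnb1 and Cenpf each had a library with under 10 counts, and none of the 34 genes was called. Ccng2, the gene of an atypical cyclin linked to arrest, was up-regulated (11.5, 11.3 and 8.57 CPM and 23.2, 26.1 and 22.6 CPM, log2 fold change 1.19, SE 0.17, FDR 0.027). Collagen and matrix genes held no call.

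Of 80 genes of cytosolic ribosomal proteins, 14 were separated upward and 1 downward, with a median log2 fold change of 0.24 that was 0.06 without model rat 1. The counts were 6 and 3 with library size alone. Of 26 genes of autophagy and lysosome, 10 were separated upward and 1 downward, against 4 and 2 with library size alone. Lamp2, a lysosomal membrane protein gene, stood at 214, 183 and 219 CPM in the control rats and at 393, 333 and 332 CPM in the model rats (FDR 0.0641). None of these genes passed the test.

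The 70 lists held 1456 of the 12677 genes tested and were chosen with earlier results of these data known. Of the 78 called genes, 31 were on one of the 70 lists and 47 on none. The firmest of the latter was Acpp (ENSRNOG00000011820), which encodes a lysosomal and secreted acid phosphatase. It stood at 4.58, 9.70 and 7.41 CPM in the control rats and at 60.0, 44.7 and 47.7 CPM in the model rats and was up-regulated 7.08-fold (log2 fold change 2.82, SE 0.27, FDR 0.0071). St8sia1, the gene of GD3 synthase, stood at 0.486, 0.91 and 0.816 CPM in the control rats and at 9.73, 4.26 and 15.2 CPM in the model rats and was up-regulated (log2 fold change 3.75, SE 0.51, FDR 0.0257), with a wide spread among the model rats. Prss32, a serine protease gene, stood at 3.89, 3.34 and 4.15 CPM and at 10.4, 11.8 and 20.5 CPM (log2 fold change 1.90, SE 0.29, FDR 0.0305). Wfdc21, a WAP domain gene, stood at 23.0, 32.5 and 26.4 CPM and at 106, 71.0 and 58.7 CPM (log2 fold change 1.53, SE 0.24, FDR 0.0331). These were up-regulated in all 3 model rats.

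Further genes off the lists were up-regulated. Gjb2, the gene of connexin 26 of hepatocyte gap junctions, ran from 22.5 to 32.3 CPM in the control rats and from 58.5 to 72.0 CPM in the model rats (FDR 0.0266). Mreg, the gene of melanoregulin, ran from 126 to 133 and from 238 to 369.9 CPM (FDR 0.0305). Ptprs, a receptor tyrosine phosphatase gene, ran from 74.7 to 84.2 and from 147 to 195 CPM (FDR 0.0238), and Gna12, the gene of a G protein alpha subunit, from 139.8 to 172 and from 252 to 293 CPM (FDR 0.0462). In each of them the lowest model rat exceeded the highest control rat by a clear margin. Rnf125, a ubiquitin ligase gene, was up-regulated to 60.4 to 93.4 CPM from 28.1 to 38.7 CPM (FDR 0.0326). The remaining up-regulated genes off the lists were Tmem94, Tcp11l2, RGD1311739, Mdfic, Ginm1, Phf13, the receptor kinase gene Ror1, the olfactory receptor gene Olr59, the carrier gene Slc12a8 and the unnamed genes AABR07068044.2 and AABR07004397.3. Olr59 belongs to a large family of similar genes, and Slc12a8, AABR07068044.2 and AABR07004397.3 had control libraries with under 10 counts, so their sizes of change are uncertain.

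Down-regulated genes off the lists included several of low level in the model rats. Scrn1, the gene of secernin, stood at 6.64, 9.34 and 4.89 CPM in the control rats and at 0.749, 0.516 and 1.32 CPM in the model rats (log2 fold change -3.01, SE 0.40, FDR 0.0238), with down to 8 counts in a model library. Lingo4, a leucine-rich repeat gene, stood at 3.28, 8.13 and 6.25 CPM and at 1.15, 0.903 and 0.877 CPM (log2 fold change -2.57, SE 0.39, FDR 0.0305). Nrep, the gene of a neuronal regeneration related protein, stood at 78.7, 47.2 and 82.5 CPM and at 26.8, 15.2 and 16.1 CPM (log2 fold change -1.84, SE 0.29, FDR 0.0349). In all 3 the model rats lay well below the lowest control rat. Cstf3, of messenger RNA 3′ end processing, ran from 11.7 to 16.1 CPM in the control rats and from 5.2 to 5.37 CPM in the model rats (FDR 0.0238). Rangap1, a GTPase-activating gene of nuclear transport, ran from 74.4 to 96.9 and from 35.8 to 46.2 CPM (FDR 0.0266). Uap1, which makes UDP-N-acetylglucosamine, ran from 25.4 to 37.5 and from 12.6 to 15.2 CPM (FDR 0.0312), and Slc17a9, the gene of the vesicular nucleotide carrier, from 66.6 to 74.2 and from 27.8 to 40.5 CPM (FDR 0.0305). The model range of each of these was narrower than its distance from the control range. Lmo7, Gcnt2, Dop1b, Prelid2, Rtn4rl2 and AABR07031193.1 were also down-regulated. Nat8f3 was down-regulated as well (FDR 0.0323), with as few as 2 counts in a model library and with close copies among the Nat8 genes, so its size is uncertain.

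Of the 70 lists, 23 held a gene called in the edgeR test, and a call has that meaning here. Lists without an edgeR call are not shown to be unchanged. In DESeq2's test, Ass1 (FDR 0.000975) and Cps1 (FDR 0.00464) of the urea cycle were called, as was Acacb (FDR 0.00277) of fatty acid synthesis. The lists without a call spanned gluconeogenesis, glycogen, the pentose phosphate pathway, the citrate cycle, fatty acid synthesis and oxidation, urea synthesis, most drug metabolising families, insulin signalling, the unfolded protein response, the interferon response, antigen presentation, collagens, the respiratory chain, ribosomes and the proteasome. Of 86 nuclear genes of the respiratory chain, 6 were separated upward and 2 downward, and of 42 proteasome genes 2 and 1. With library size alone, the counts were 3 and 9 in the respiratory chain and 1 and 15 in the proteasome. Under that scaling 5.32% of all genes were separated upward and 16.7% downward. Of 34 interferon-stimulated genes, 3 were separated upward and 2 downward, and 0 and 2 with library size alone.

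**Figure D5:**
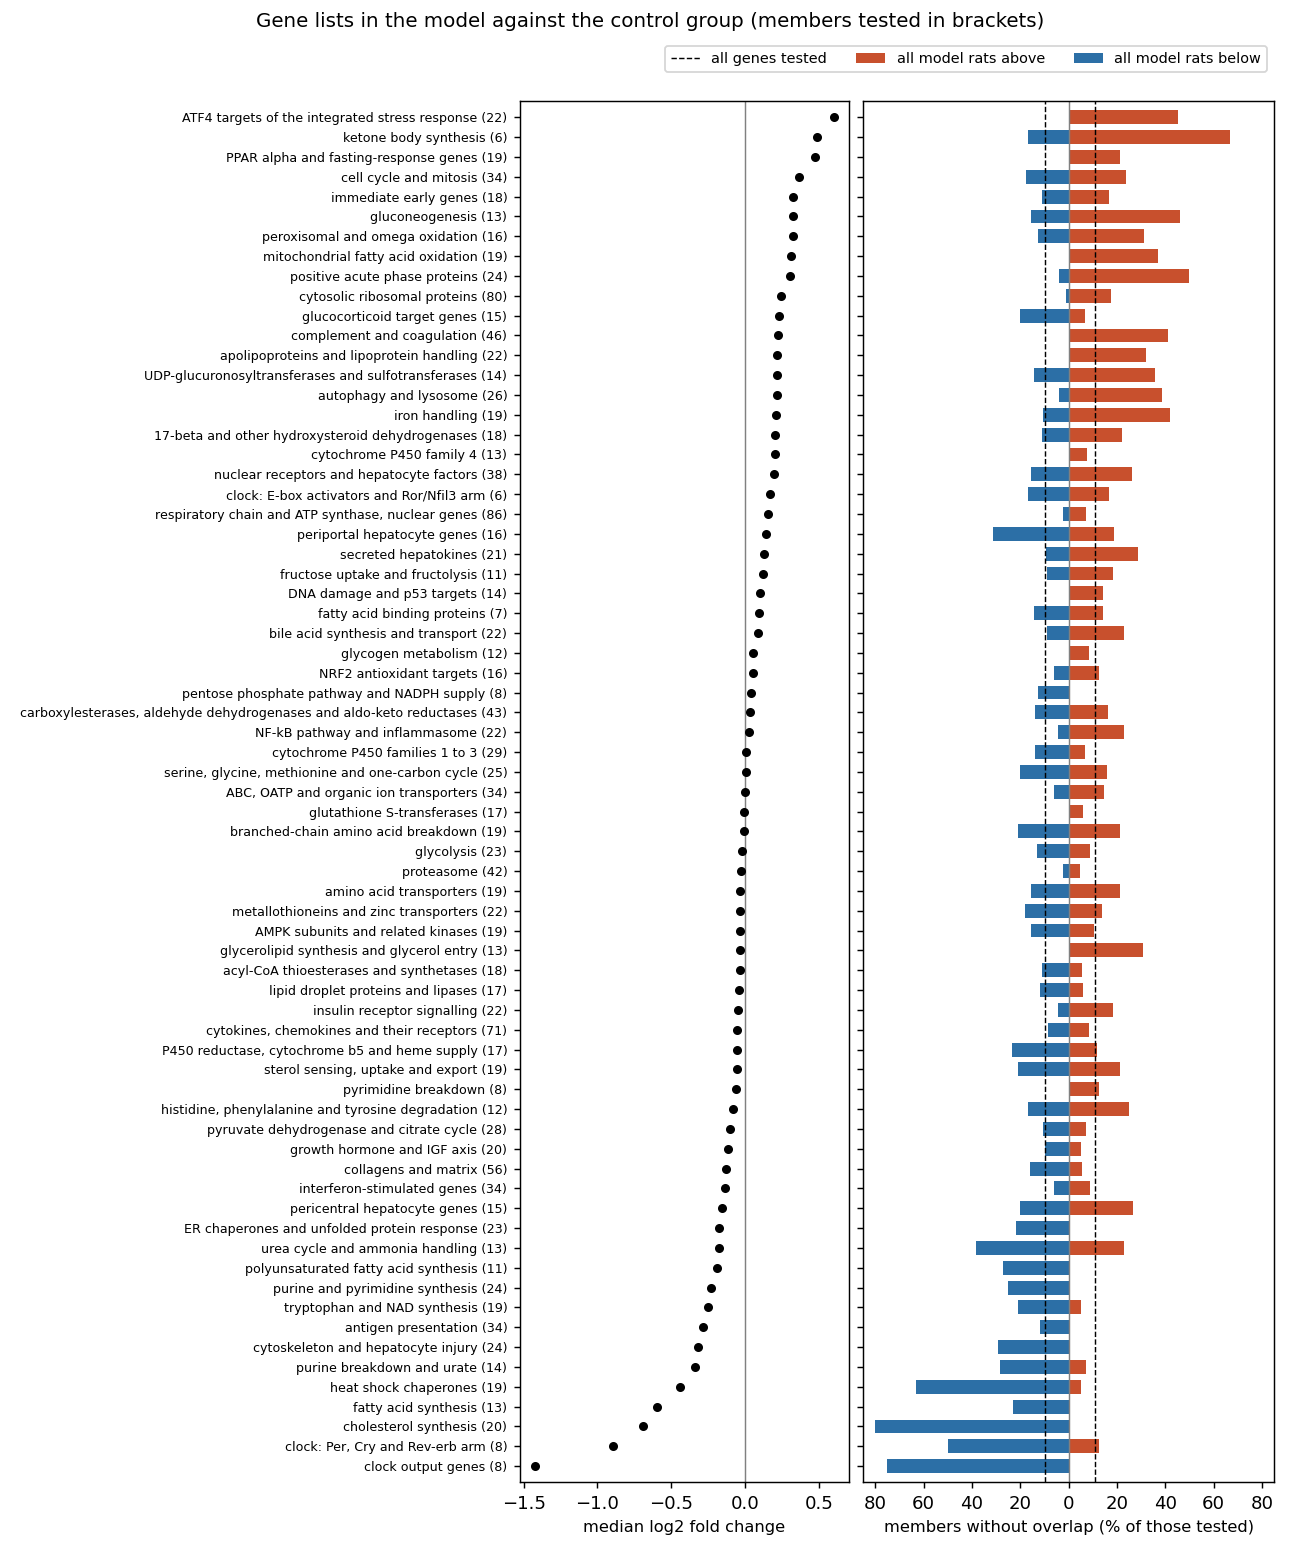
The 69 gene lists with at least 6 tested members (rows, number tested in brackets), ordered by the median log2 fold change of their members (left, horizontal axis). On the right, bars give the percentage of members with all model rats above (red) or below (blue) all control rats, and dashed lines the same for all genes tested, 10.8% above and 9.84% below; clock output, cholesterol synthesis and heat shock genes reach furthest on the side below.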

How the data were processed

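Liver RNA-seq of 9 rats was deposited, and the 3 control and 3 model libraries were analysed here, grouped by their titles. The authors deposited raw counts of reads per gene. Per the submitters' processing notes, reads were aligned with HISAT2 to Rnor_6.0 and counted with HTSeq 0.6.1. The study's methods state counting on exons without strand, so a gene's reads cannot be told apart from those of an antisense or overlapping partner, and near-identical copies may share reads. Of the genes, 805 share a symbol with another. A second table, of assembled transcripts in an unstated unit, was left out.

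Genes with at least 10 counts in 3 or more of the 6 libraries were tested with edgeR 4.0.16 (TMM factors, robust quasi-likelihood fit, 2 groups) in R 4.3.3, with limma 3.58.1. A gene was called at an FDR of 0.01 or 0.05 and a log2 fold change of at least 0.5 in either direction. "Separated" means that all 3 model rats lay on 1 side of all 3 control rats in CPM. The labels name no batch, and each p-value sets the group difference against the spread between rats, fitted over both groups together. Depth ranged from 14345819 to 26837227 counts per library. The exact permutation test of 3 against 3 cannot go below 0.10 and was not used. The scripts were tested on simulated data.

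The gene lists, markers and named genes were chosen with earlier results of these data known. Named were the called genes, the members of each list with the largest separated change or highest level, and Khk, Hsd17b13, Hsd17b7, Tnfaip2, Nlrp12 and Il33. Other members were named for their known role after their values had been seen. A few items are not reported here. Alternatives were 2 other scalings, 3 other filters, DESeq2 1.42.0, a fit without robust estimation, a fit of all 9 libraries, a replicate block, thinned counts, no minimum fold and leaving out each rat.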

Additional observations from a re-analysis of the deposited data

How the results depend on the processing

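Counts of called genes moved with the test, the filter and the rats included. The direction of the 78 called genes held in every setting in which they were tested, each of which reuses the same rats. At an FDR of 0.01 and 0.05, 71 and 188 genes were called without a filter on low counts, 256 and 457 by DESeq2, and 25 and 136 with all 9 libraries in one fit, against 10 and 78. Leaving out 1 rat gave from 0 to 10 genes at 0.01 and from 15 to 114 at 0.05. At 0.01 no gene was left without control rat 1, 2 or 3, and 4 without model rat 3. Of the 78, 6 were called in none of these 6 fits, which hold fewer rats. Abcg8, Soat2, Slc6a9, Nab2 and Phf13 were among them. The other settings stayed within 1.5 times. With library size alone, an alternative for these counts that was chosen after seeing the data, 674 genes had all model rats above and 2117 all below. With a replicate block, 0 genes were called at 0.01 and 1 at 0.05, Per2 (FDR 0.0231). Rats of the same number did not deviate together (correlations -0.127, -0.236 and -0.0249 of their deviations from the group means). These correlations cannot show whether rats of the same number shared any handling, and the labels name no batch. The DESeq2 fit had 1640 genes at an unadjusted p under 0.05 and edgeR 1660; the cause of the different number of calls was not tested.

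Among the other named genes, 4 uncalled ones changed sign. With library size alone, Clock had a log2 fold change of -0.01 and Hmgcs1 of -0.05. Slc2a2 stood at 0.00 without a filter, at 0.00 with the replicate block and from -0.06 to 0.05 without single rats. Without single rats, Dbp ran from -2.08 to 0.37. With 3 rats a group, depth limits genes under 10 counts in a library, which 8 of the called genes had in at least 1.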
